A study of Mus musculus with 5 samples.

Results

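The early response genes described here are the 4 EGR genes, the 3 NR4A genes, Ier2, Ier3 and Dusp1, which cells transcribe within minutes of a stimulus. They were chosen by gene symbol, and all 10 were on the array, with 19 probe sets annotated to one of them alone, out of 34945 probe sets with a single symbol and 18193 genes. All 5 samples belong to 1 group, and each biological replicate was measured on an Affymetrix array of its own. The group consisted of GFP+ cells sorted by flow cytometry from dissociated lungs of E17.5 FOXJ1-GFP embryos, the offspring of FOXJ1-GFP mice and outbred ICR mice, and no agent was given. In this line GFP is driven by a FOXJ1 promoter, so the cells were defined by reporter fluorescence, and the lungs had been digested with trypsin and EDTA before the sort. The study compared these cells with tip progenitors of the early lung, which are not analysed here, so each gene is described by its signal and by its spread over the 5 arrays. The labels do not tie the replicates to separate litters or sorts, and p-values therefore measure the spread between these samples only.

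Early response genes need no new protein synthesis to be switched on. Growth factors, stretch, injury and other stimuli act through MAP kinases on the serum response factor SRF and its ETS partners, and through calcium and cyclic AMP on CREB, and these proteins already sit in the cell. EGR1, EGR2, EGR3 and EGR4 are zinc finger transcription factors that bind GC-rich sites. NR4A1 (NUR77), NR4A2 (NURR1) and NR4A3 (NOR1) are nuclear receptors whose activity depends mainly on how much of them is made. IER2 is a nuclear protein, IER3 (IEX-1) affects cell survival, and DUSP1 is a phosphatase that switches MAP kinases off. In this study, RNA in situ hybridisation found Nr4a3 enriched in the airways, without the scattered pattern that the paper linked to ciliated cells. Nr4a1 was electroporated into tracheal explants and was not among the factors reported to promote ciliated cell differentiation.

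RefSeq promoter windows (GRCm38.p6) run from 250 bases before to 50 after a transcription start. They were used for 7 of the 10 genes, namely Egr2, Egr4, Nr4a1, Nr4a2, Nr4a3, Ier3 and Dusp1. None was used for Egr1, Egr3 and Ier2, and those genes were not searched. The 3 NR4A windows are shown because their genes differed in how they varied between arrays, Egr2 because it varied with Nr4a3, and Dusp1 because it holds the full form of the CREB site. Capitals mark TGACG on either strand (CGTCA when read on the other strand), the core of the site that CREB binds, and, in Egr2, the CArG box that SRF binds. The window of Nr4a1 is at chr15:101266596-101266895 (+ strand), that of Nr4a2 at chr2:57123954-57124253 (- strand), that of Nr4a3 at chr4:48045055-48045354 (+ strand), that of Egr2 at chr10:67537619-67537918 (+ strand, 1 of 5 annotated windows) and that of Dusp1 at chr17:26508423-26508722 (- strand).
Nr4a1: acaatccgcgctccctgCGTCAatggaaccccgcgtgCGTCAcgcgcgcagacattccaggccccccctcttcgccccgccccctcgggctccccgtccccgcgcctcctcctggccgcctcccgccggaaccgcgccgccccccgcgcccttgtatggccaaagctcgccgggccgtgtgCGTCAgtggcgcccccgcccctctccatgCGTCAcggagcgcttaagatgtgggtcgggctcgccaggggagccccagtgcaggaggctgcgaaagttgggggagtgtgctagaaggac
Nr4a2: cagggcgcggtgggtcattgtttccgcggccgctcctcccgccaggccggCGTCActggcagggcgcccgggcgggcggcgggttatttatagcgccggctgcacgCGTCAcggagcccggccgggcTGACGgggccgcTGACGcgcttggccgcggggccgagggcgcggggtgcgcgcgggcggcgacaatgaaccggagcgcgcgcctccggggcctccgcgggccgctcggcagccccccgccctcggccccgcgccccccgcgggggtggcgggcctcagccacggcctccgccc
Nr4a3: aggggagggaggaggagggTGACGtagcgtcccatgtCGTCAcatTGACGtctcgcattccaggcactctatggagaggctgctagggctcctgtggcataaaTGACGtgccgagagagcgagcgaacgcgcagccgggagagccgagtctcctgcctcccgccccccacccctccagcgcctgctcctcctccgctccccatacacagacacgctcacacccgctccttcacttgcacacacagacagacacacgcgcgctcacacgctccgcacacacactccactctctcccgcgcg
Egr2: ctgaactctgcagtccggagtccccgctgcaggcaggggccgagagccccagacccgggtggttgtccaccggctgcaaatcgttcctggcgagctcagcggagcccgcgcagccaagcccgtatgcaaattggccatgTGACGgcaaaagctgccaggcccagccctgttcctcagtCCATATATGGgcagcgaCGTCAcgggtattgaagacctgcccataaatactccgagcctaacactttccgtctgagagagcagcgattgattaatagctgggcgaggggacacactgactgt
Dusp1: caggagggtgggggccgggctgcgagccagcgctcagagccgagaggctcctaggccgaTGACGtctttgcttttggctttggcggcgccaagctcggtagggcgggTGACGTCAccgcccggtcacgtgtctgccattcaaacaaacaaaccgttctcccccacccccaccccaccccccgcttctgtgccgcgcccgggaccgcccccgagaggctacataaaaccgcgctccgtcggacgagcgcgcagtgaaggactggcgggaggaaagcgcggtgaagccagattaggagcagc

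TGACG was found in 6 of the 7 genes, with 4 matches in each NR4A window, 3 in Dusp1, 2 in Egr4 and 2 in the Egr2 window shown. Of all 32851 windows in the table, 20.8% held at least 1 match, 5.01% at least 2 and 0.231% at least 4. These shares include a chromosome whose windows were left out for the members. Ier3 had none. In Dusp1, 2 of the 3 matches overlap and form TGACGTCA, the full palindrome, which 1.79% of windows held. The CArG box was searched only as CC, then 6 letters that are A or T, then GG, without mismatches. In this form it was found in Egr2 alone among the 7 genes (1.63% of windows). GCGNGGGCG, a site of the kind that EGR proteins bind, was found once each in Nr4a1 and Nr4a2 (5.55% of windows). It is not in capitals there. Both strands were searched for each motif. A match describes these letters and was not tested as a binding site.

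Of the 10 genes, 9 gave a signal above background in the sorted cells, and the exception was Egr4. Egr1, Dusp1, Ier3, Nr4a1 and Ier2 have only 1 probe set each, which was above background. Both probe sets of Egr2 were above it too, whereas those of Egr3, Nr4a2 and Nr4a3 did not all pass. Each gene was represented by its probe set with the highest mean. Background was a log2 signal of 7.10, the 95th percentile among 143 genes that lung should not express (75 odorant, vomeronasal and taste receptors and 68 genes restricted to other tissues), and means were compared with it by limma, one-sided, with p-values adjusted over 45037 probe sets. By the same test 64.7% of all genes passed, so a count of 9 of 10 is read against that share. The same 9 genes had all 5 arrays above the level, where 64.2% of all genes did. Of the 19 probe sets, 13 passed, where 48.3% of all probe sets did. The study's cut-off of 5 was for average expression, used with a fold change against tip progenitors. Read here as log2 and applied by the same test to these arrays alone, 18 of 19 passed, where 72.2% of all probe sets did. The brightness of a probe set depends on its sequence, so genes are not ranked by their signal.

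**Figure D1:**
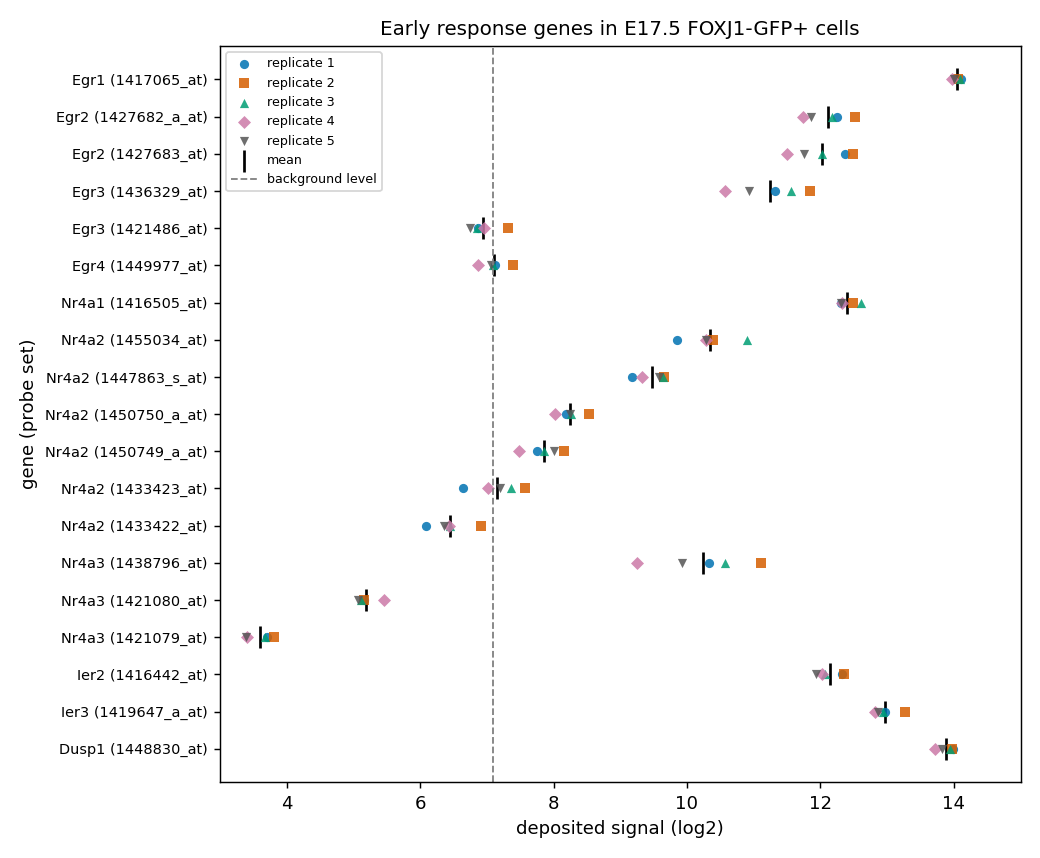
Deposited log2 signal (horizontal axis) of the 19 probe sets of the early response genes (vertical axis) on 5 arrays of E17.5 FOXJ1-GFP+ cells. Each symbol is 1 replicate, the short bar is the mean and the dashed line the background level of 7.10. Egr1 and Dusp1 lie near 14 with little spread, whereas the Nr4a3 probe set 1438796_at ranges from 9.25 to 11.11.

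Egr1, a factor that many cell types induce, had signals of 14.11, 14.07, 14.09, 13.97 and 14.00 in replicates 1 to 5. The 5 arrays lay within 0.14 of each other, with a mean of 14.05 ± 0.06 (SD, n = 5 arrays; adjusted p = 4.51e-11, limma). Egr2, which in the mouse is known for its role in the hindbrain and in myelination, had 12.25, 12.52, 12.17, 11.74 and 11.86 with its brighter probe set, a mean of 12.11 ± 0.31 (SD, n = 5 arrays; adjusted p = 1.74e-09, limma). Replicate 2 was the highest and replicate 4 the lowest. Its other probe set, 1427683_at, had 12.37, 12.49, 12.02, 11.50 and 11.75 and put the arrays in the same order, so that all 10 pairs of arrays were ordered alike by both.

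Egr3, known from muscle spindles and lymphocytes, had 11.31, 11.84, 11.56, 10.57 and 10.93 with probe set 1436329_at, a mean of 11.24 ± 0.51 (SD, n = 5 arrays; adjusted p = 7.77e-08, limma). Replicates 4 and 5 both lay below the other 3 arrays. Its second probe set, 1421486_at, lay between 6.75 and 7.31 with a mean of 6.95 and did not pass, so the call for Egr3 rests on 1 of 2 probe sets. Both had their highest value on replicate 2, but they ordered only 6 of 10 array pairs alike. Egr4, which has 1 probe set, had 7.12, 7.39, 7.08, 6.86 and 7.06, values on both sides of the background level, and its mean of 7.10 ± 0.19 did not pass (SD, n = 5 arrays; adjusted p = 0.934, limma). Egr4 passed when receptor genes alone set the background, at 5.45, which it exceeded by 1.65.

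Nr4a1 had 12.31, 12.48, 12.61, 12.33 and 12.31 in replicates 1 to 5, a mean of 12.41 ± 0.13 (SD, n = 5 arrays; adjusted p = 9.77e-11, limma). Replicate 3 was the highest, and replicates 1, 4 and 5 were nearly equal. Nr4a2, best known from dopamine neurons, has 6 probe sets, of which 4 passed. The brightest, 1455034_at, had 9.85, 10.39, 10.90, 10.28 and 10.29, with replicate 1 the lowest and replicate 3 the highest, and a mean of 10.34 ± 0.38 (SD, n = 5 arrays; adjusted p = 7.05e-08, limma). The means of the other 5 were 9.47, 8.25, 7.85, 7.16 and 6.45, and the last 2 did not pass. These 5 probe sets had their highest value on replicate 2. Any pair of the 6 ordered 7 to 10 of the 10 array pairs alike.

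Nr4a3 had 10.34, 11.11, 10.57, 9.25 and 9.93 with probe set 1438796_at, a mean of 10.24 ± 0.70 (SD, n = 5 arrays; adjusted p = 3.58e-06, limma). Among the probe sets that stand for the member genes this was the largest spread, and replicate 2 lay 1.86 above replicate 4 on the log2 scale, a 3.62-fold difference. The other 2 probe sets were dim, at 5.19 ± 0.15 and 3.60 ± 0.19 (SD, n = 5 arrays), and neither passed. With all 3 probe sets averaged, Nr4a3 lay below the background of that setting (-0.61), so its call holds for 1 probe set of 3, and its SD was then 0.26, below that of Egr2 (0.36) and Egr3 (0.33). It was also lost against the 99th percentile of the background genes, at 9.75 (adjusted p = 0.165, limma).

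Ier2, Ier3 and Dusp1 have 1 probe set each, and all passed. Ier2 had 12.33, 12.35, 12.08, 12.03 and 11.93, with a mean of 12.14 ± 0.19 (SD, n = 5 arrays; adjusted p = 2.46e-10, limma), and replicates 1 and 2 lay above the other 3. Ier3 had 12.97, 13.27, 12.94, 12.82 and 12.87, with a mean of 12.98 ± 0.18 (SD, n = 5 arrays; adjusted p = 1.08e-10, limma). Replicate 2 stood above the other 4 arrays, which lay between 12.82 and 12.97. Dusp1 had 13.99, 13.97, 13.95, 13.72 and 13.82, with a mean of 13.89 ± 0.12 (SD, n = 5 arrays; adjusted p = 4.51e-11, limma), and replicate 4 was again the lowest.

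The members differed from each other in how far they varied between the 5 arrays. The median SD was 0.19 for the 9 member genes above background and 0.16 for all 11776 genes above background. Nr4a3, with an SD of 0.70, was matched or exceeded by 0.306% of these genes, Egr3 (0.51) by 1.53%, Nr4a2 (0.38) by 5.79% and Egr2 (0.31) by 11.4%. Ier2 (0.19) and Ier3 (0.18) were in the middle of the range, at 39.0% and 42.5%, and Nr4a1 (0.13), Dusp1 (0.12) and Egr1 (0.06) had smaller SDs than most genes, at 60.4%, 68.7% and 93.3%. Bright probe sets varied less in general. Among genes with a mean within 0.5 of the member's, the median SD was 0.06 for Egr1, 0.07 for Dusp1, 0.12 for Nr4a1 and 0.16 for Nr4a3. Against that median 8 of 9 members had the larger SD, Egr1 being the exception, and 4 had more than 2 times as much: Nr4a3 at 4.36 times, Egr3 at 3.63, Egr2 at 2.54 and Nr4a2 at 2.35. Dusp1, whose SD was small, had 1.68 times the median of genes as bright. The order of the SDs belongs to the brightest probe sets. When each gene was averaged over its probe sets, the SD was 0.36 for Egr2, 0.33 for Egr3, 0.26 for Nr4a3 and 0.24 for Nr4a2. Single arrays carried part of the spread, since the SD of Ier3 was 0.07 without replicate 2, that of Nr4a2 0.24 and of Nr4a1 0.09 without replicate 3, and that of Dusp1 0.08 without replicate 4. These values are descriptions, and no test was made of them.

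**Figure D2:**
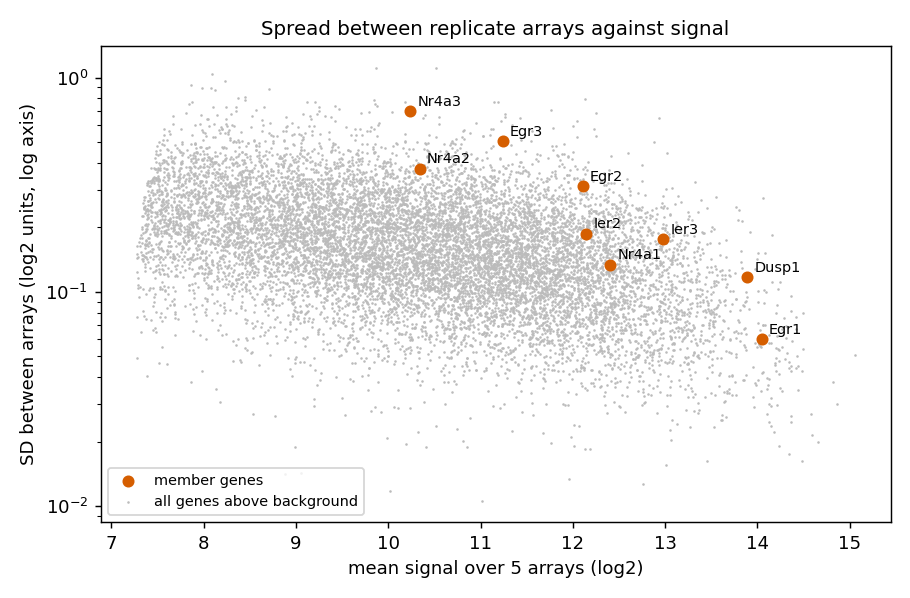
SD between the 5 arrays (vertical axis, log2 units on a log axis) against the mean log2 signal (horizontal axis) for the 9 member genes above background (orange) and all genes above background (grey). Nr4a3 (0.70) and Egr3 (0.51) lie at the upper edge of the cloud, and Egr1 (0.06) lies at the level of other bright genes.

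Replicates 2 and 4 were ordered alike by every member. All 9 genes above background had a higher signal on replicate 2 than on replicate 4, whereas 46.9% of all genes above background did. Egr4 did so as well, at 7.39 and 6.86. The difference, replicate 2 minus replicate 4, ranged from 0.10 in Egr1 and Nr4a2 to 1.86 in Nr4a3, with 1.27 in Egr3, 0.78 in Egr2 and 0.45 in Ier3. Its median was 0.32 for the 9 members and -0.02 for all genes above background. Replicate 2 was the highest array for 5 of the 9 members, against 16.2% of all genes, and replicate 4 the lowest for 6 of the 9, against 14.7%. Both held for 4 members, Egr2, Egr3, Nr4a3 and Ier3, against 5.1% of all genes. Nr4a1 and Nr4a2 were highest on replicate 3, Egr1 and Dusp1 on replicate 1, and Ier2 was lowest on replicate 5. Of the 19 probe sets, 18 were higher on replicate 2 than on replicate 4, the exception being 1421080_at of Nr4a3. The pair of arrays was singled out after the values of the members were seen, and with 1 array for each replicate a difference between arrays has no test.

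**Figure D3:**
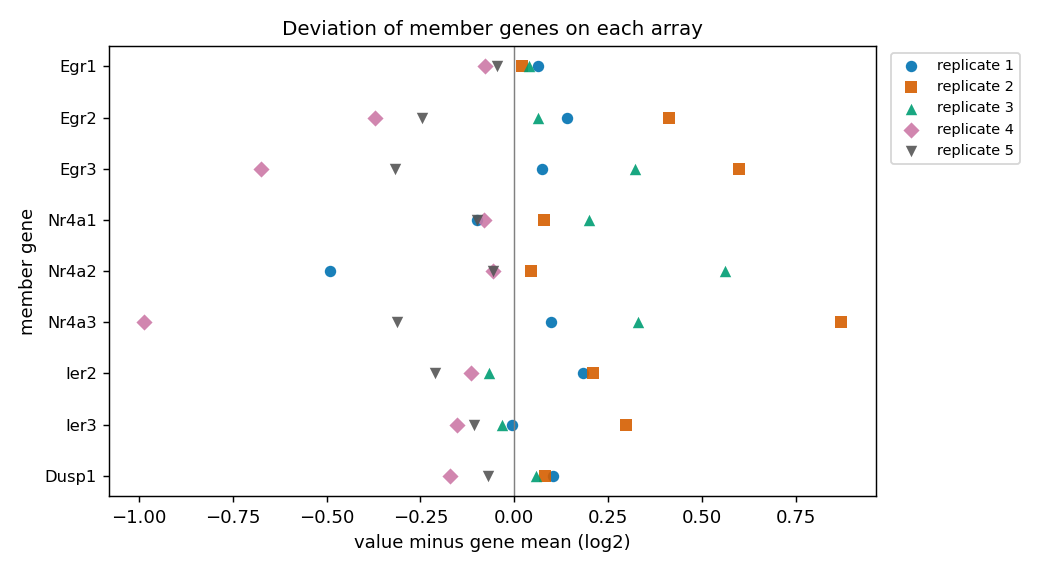
Deviation of each array from the gene's mean over the 5 arrays (horizontal axis, log2) for the 9 member genes above background (vertical axis), with 1 symbol for each replicate. Replicate 2 lies to the right of replicate 4 in every gene, by 1.86 in Nr4a3 and by 0.10 in Egr1, while Nr4a2 has replicate 1 at the left end and replicate 3 at the right.

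With 5 arrays, likeness between genes was described by how many of the 10 pairs of arrays were placed in the same order and by the root mean square difference of their deviations. Over the 36 pairs of member genes the median was 8 of 10, the lowest 5 and the highest 10. Egr3 and Nr4a3 ordered all 10 array pairs alike, with a root mean square difference of 0.19 on the log2 scale, and so did Egr2 and Ier3 (0.15). Egr2 matched Egr3, Nr4a3, Ier2 and Dusp1 in 9 pairs each. Egr1 and Dusp1, at the bright end of the scale, where SDs are small, matched in 9 pairs and differed by 0.05. Nr4a1 and the brightest probe set of Nr4a2 matched the other members less often. They matched each other in 8 pairs and Nr4a3, the other member of their family, in 7 each, and both matched Dusp1 in 5. For Nr4a2 this depended on the probe set. The brightest, 1455034_at, placed 7 of 10 array pairs as the members' mean did, and the other 3 above background placed 8, 9 and 8. Of these, 1450750_a_at and 1450749_a_at were highest on replicate 2 and lowest on replicate 4, with replicate 2 minus replicate 4 at 0.52 and 0.69, as in Egr2, Egr3 and Nr4a3.

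**Figure D4:**
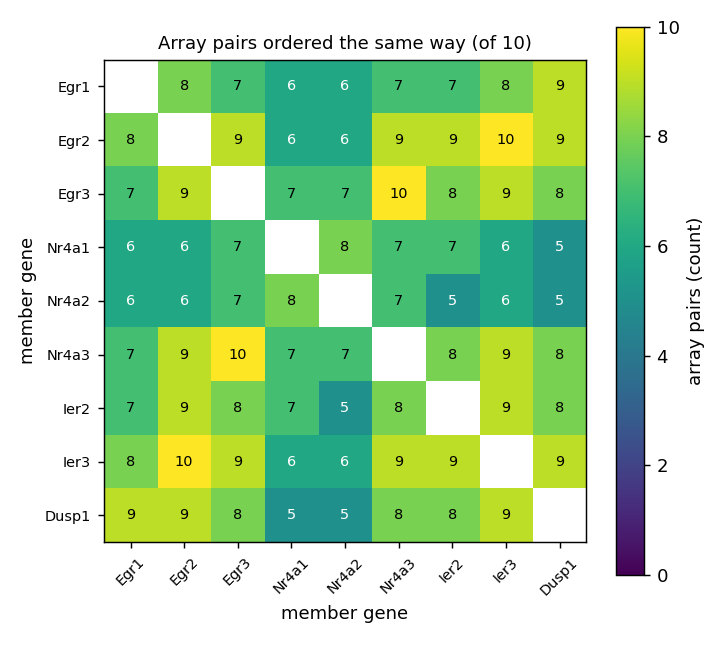
Number of the 10 pairs of arrays that 2 member genes placed in the same order, for the 9 member genes above background (both axes). Egr3 with Nr4a3 and Egr2 with Ier3 reach 10, and Dusp1 with Nr4a1 or Nr4a2 and Ier2 with Nr4a2 are at 5.

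Averaged over the 9 members, the deviation from the gene means was 0.29 on replicate 2, 0.16 on replicate 3, 0.01 on replicate 1, -0.16 on replicate 5 and -0.30 on replicate 4, a range of 0.59. The range was 0.72 for the 3 EGR genes, 0.74 for the 3 NR4A genes and 0.34 for Ier2, Ier3 and Dusp1. It was 0.43 when Nr4a3 was left out, and with any 1 member left out the 5 arrays stayed in this order.

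Other immediate early genes had the same order of arrays on average. Of 43 on the list, which includes the AP-1 family, 42 were above background, the exception being Plk3, a kinase of the stress response, at 6.98 ± 0.10 (SD, n = 5 arrays). Their mean deviation was 0.23 on replicate 2 and -0.20 on replicate 4, and it placed all 10 array pairs in the order of the members' mean. Replicate 2 was above replicate 4 in 37 of the 42, and Jund, Zfp36l1, Nfkbia, Socs3 and Tnfaip3 went the other way. Taken gene by gene, at least 9 array pairs were in the order of the members' mean in 4 of the 9 members, which themselves make up that mean, in 18 of the 42 and in 3.87% of all genes above background. Fos, an AP-1 subunit, had 14.18, 14.14, 14.19, 14.04 and 14.08, a narrow range at the bright end of the scale. Fosb had 12.71, 12.75, 12.62, 12.17 and 12.50. Fosl1 had 8.22, 8.62, 8.09, 7.11 and 7.50, with replicates 4 and 5 below the other 3 as in Egr3, and Fosl2 had 11.81, 12.24, 12.11, 11.86 and 11.94.

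Fosl1 was also the gene whose deviations were closest to those of Nr4a3, the most variable member, among all non-members above background (root mean square difference 0.17 over 5 arrays). The next were Thbs1, which encodes the matrix protein thrombospondin 1 (0.20), Myc (0.20), Sik1, a kinase induced by cyclic AMP (0.22), and Gadd45a, a stress response gene (0.24). Of these 5, 4 were on the list of immediate early genes and Thbs1 was not. Sik1 had 11.35, 11.96, 11.85, 10.53 and 10.67 and placed all 10 array pairs as Nr4a3 did. Myc had 8.25, 8.96, 8.48, 7.38 and 8.32, and Thbs1 had 11.66, 11.89, 11.47, 10.17 and 11.12. Replicate 2 was the highest and replicate 4 the lowest in all 5. Closest to the mean of the members were Vmp1 (0.04), Mmp14 (0.04), Igf1 (0.05), Hmbox1 (0.05) and Cemip2 (0.05), each with all 10 array pairs in the same order. None of them was on the list of immediate early genes.

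The phosphatases related to Dusp1 showed part of the pattern too. Of 10, 8 were above background, and Dusp2 at 6.59 ± 0.12 and Dusp9 at 6.63 ± 0.62 were not (SD, n = 5 arrays). All 8 were higher on replicate 2 than on replicate 4. At least 9 array pairs were in the order of the members' mean in 3 of the 8. Dusp5, which acts on ERK in the nucleus, had 11.91, 12.35, 11.78, 11.37 and 11.61. Dusp6, its cytoplasmic counterpart, had 12.24, 12.47, 12.29, 12.08 and 12.21 and placed all 10 array pairs as the members' mean did. Dusp4 had 8.79, 8.70, 8.63, 8.28 and 8.52.

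Transcripts of the proteins that act above and beside the members were above background with 1 exception, and as groups they varied otherwise. All 11 measured upstream factors were above background, among them Srf, and the ETS partners Elk1 at 9.93 ± 0.13, Elk3 at 10.74 ± 0.25 and Elk4 at 12.02 ± 0.13 (SD, n = 5 arrays). Srf itself had 12.20, 12.40, 12.18, 11.69 and 11.98, with replicate 2 the highest and replicate 4 the lowest, and placed 9 of 10 array pairs as the members' mean did, whereas the mean of the 11 factors placed 6. All 5 measured MAP kinases and MAP kinase kinases were above background, with Map2k1 at 10.45 ± 0.06, Map2k2 at 10.72 ± 0.14, Mapk8 at 10.32 ± 0.20 and Mapk9 at 11.25 ± 0.12 (SD, n = 5 arrays). Their mean deviation spanned 0.08 and placed 5 of 10 array pairs in the members' order. Of the partners, the EGR co-repressors Nab1 and Nab2 were at 9.23 ± 0.11 and 9.67 ± 0.09, and Rxra and Rxrb, receptors that pair with NR4A1 and NR4A2, at 11.59 ± 0.07 and 11.36 ± 0.11 (SD, n = 5 arrays). Rxrg, at 4.80 ± 0.21, was not above background.

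Heat shock genes, which respond to stress as well, did not follow the members' arrays. All 11 measured were above background, and 4 were higher on replicate 2 than on replicate 4. Their mean deviation was lowest on replicate 1 (-0.16) and highest on replicate 5 (0.13), and it placed 5 of 10 array pairs in the members' order.

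**Figure D5:**
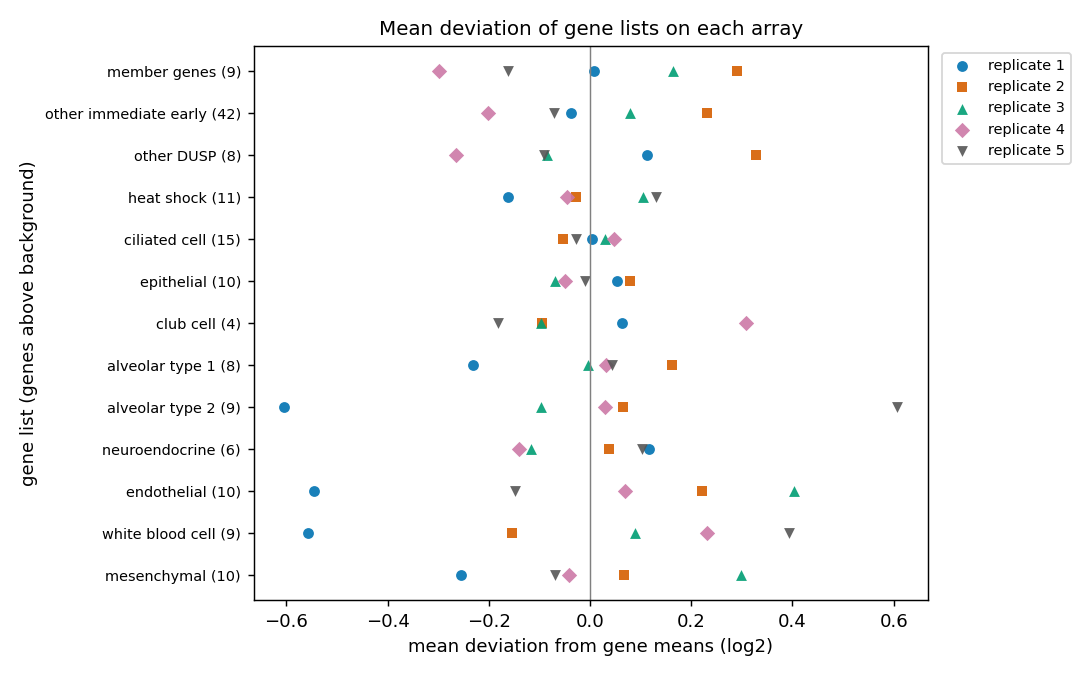
Mean deviation from the gene means (horizontal axis, log2) of 13 gene lists (vertical axis, with the number of genes above background) on each array, with 1 symbol for each replicate. The members and the other immediate early genes have replicate 2 at the right end and replicate 4 at the left (0.29 and -0.30 for the members, 0.23 and -0.20 for the others), while the alveolar type 2 genes run from replicate 1 (-0.60) to replicate 5 (0.61).

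The sorted cells carried the ciliated cell markers throughout, with all 15 above background and Foxj1 at 12.82 ± 0.08 (SD, n = 5 arrays), but markers of other cell types were above background too. These were 10 of 10 epithelial, 4 of 4 club cell, 8 of 8 alveolar type 1, 9 of 9 alveolar type 2, 6 of 6 neuroendocrine, 10 of 10 endothelial, 10 of 10 mesenchymal, 9 of 10 white blood cell and 1 of 7 red blood cell genes. The exception among white blood cell genes was Ptprc (CD45), their defining marker, which did not pass (7.33 ± 0.58). Any pair of arrays correlated at 0.987 to 0.994 (Pearson's r across probe sets, which are no independent replicates). In such samples fewer cells of a type and less RNA per cell cannot be told apart.

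No mean of these cell types placed all 10 array pairs as the members' mean did. The mean deviation of the ciliated markers spanned 0.10 and placed 3 of 10 array pairs in the members' order, and 4 of 15 were higher on replicate 2 than on replicate 4. So were 7 of 8 alveolar type 1, 5 of 6 neuroendocrine, 7 of 10 endothelial and 6 of 10 epithelial genes. Lower counts were 5 of 9 alveolar type 2, 5 of 10 mesenchymal, 1 of 9 white blood cell and 0 of 4 club cell genes. The count of array pairs was 7 for epithelial genes, 6 each for alveolar type 1, neuroendocrine, endothelial and mesenchymal genes, 5 for alveolar type 2, 4 for club cell and 3 for white blood cell genes. Egr2 and Ier3 each placed 8 of 10 array pairs in the epithelial order and 9 in that of the other immediate early genes. Dusp1 placed 8 in the neuroendocrine order and 8 in that of those genes. For Egr1, Dusp1 and Ier2 the root mean square difference from the epithelial mean was 0.059, 0.087 and 0.125. From the other immediate early genes it was 0.119, 0.093 and 0.140. The remaining members were closer to the other immediate early genes. Nr4a1 and the brightest probe set of Nr4a2 had other values. Each placed 9 of 10 array pairs in the order of the endothelial mean and 9 in that of the mesenchymal mean, where Nr4a3, Egr3 and Ier2 placed 6 and Dusp1 4. Each also placed 9 in that of the upstream factors, and for Nr4a1 these were closer (root mean square difference 0.05) than the mesenchymal (0.09) or endothelial mean (0.24). The endothelial mean was -0.55 on replicate 1 and 0.40 on replicate 3, and the Nr4a2 probe set 1455034_at lay furthest below its mean on replicate 1 (-0.49) and furthest above it on replicate 3 (0.56). Their root mean square difference was 0.13. It was 0.22, 0.32 and 0.37 for the other 3 Nr4a2 probe sets above background, which placed 8, 7 and 6 array pairs in the endothelial order. The part of endothelial, mesenchymal or other cells in the signals of Nr4a1, Nr4a2 and the other members was not tested.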

How the data were processed

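RNA of 5 sorted samples was amplified, labelled with biotin and hybridised to Affymetrix mouse arrays, and the authors used Bioconductor packages in R. Each array has 1 deposited log2 value for a probe set, taken here as already normalized between arrays. The method was not given in the sources used here, and log2 was taken as the scale because values ran from 2.37 to 15.11. Medians of the arrays lay between 7.18 and 7.26. The number of arrays limits the precision.

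Probe sets were named through the platform annotation, with Entrez identifiers checked against GRCm38.p6 (99.4% matched). Of 45037 probe sets that are not controls, 932 with several symbols and 9160 unnamed here were not assigned to genes. An intercept was fitted to each probe set on all 5 arrays with limma 3.58.1 (R 4.3.3), tested one-sided against the stated level and adjusted by Benjamini-Hochberg, and a call needed an adjusted p under 0.05. Of the 143 background genes, 6 passed. Other calculations used Python 3.11.15 with numpy 2.4.6 and pandas 2.3.3. The steps were tested on simulated data. A gene's deviation is its value on an array minus its mean over the 5 arrays.

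The members, gene lists, tests and alternatives were chosen with earlier results of these data known. The text names all members with all probe sets, the first 4 genes of each list related to the pathway, up to 5 genes whose call goes against their list, and the 5 genes closest to the most variable member and to the members' mean. The 5 immediate early genes lower on replicate 2 than on replicate 4 and the genes closest to Egr2, Egr3 and Nr4a2 were named, and single members and Nr4a2 probe sets compared with list means, after their values were seen. A gene among those closest to Egr2 is not reported here. The alternatives were the mean of a gene's probe sets, the omission of those with the suffix _s, _x or _a, quantile normalization and centring. Others were all 5 arrays above the level, other backgrounds, a filter on dim probe sets, and each replicate left out.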

Additional observations from a re-analysis of the deposited data

Results flagged for a closer look

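The dim Nr4a3 probe set 1421080_at had one array far from the rest, with 5.46 on replicate 4 against 5.07 to 5.16 on the other 4 arrays. Replicate 4 is the array on which the bright Nr4a3 probe set 1438796_at was lowest, at 9.25. The gap to the nearest array passed Dixon's limit for groups of 5. It was the single such case among 23 sets of 5 values tested, the 19 probe sets and 4 mean profiles, and chance alone passes this limit in about 5% of sets.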

How the results depend on the processing

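Of 324 values recomputed under the alternatives, 314 kept their direction and their side of the threshold or moved by less than the spread. Egr4 sits at the background level, and its distance from it was -2.65 against the 99th percentile of the background genes, -1.52 with dim probe sets filtered, -0.89 with tissue-restricted genes as background, and between -0.10 and 0.12 with 1 replicate left out. Nr4a3 was at -0.61 with its probe sets averaged, since 2 of the 3 are dim. The member probe sets above background numbered 8 of 14 without those with the suffix _s, _x or _a, since 5 of the 19 were then left out. Ier3 then had no probe set, and 8 of the 9 genes still measured were above background. Under the alternatives 8 to 10 member genes were above background, 9 whichever replicate was left out. The range of the members' mean deviation was 0.45 to 0.59 with 1 replicate left out, lowest without replicate 4, and 0.58 and 0.61 after quantile normalization and centring. The median share of array pairs that 2 members ordered alike was 80.0% with all arrays and 66.7% to 83.3% with 1 replicate left out, lowest without replicate 4 or replicate 5. No paired analysis was possible because there is 1 group.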

Other observations

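The genes closest to the other variable members were looked up after their values had been seen. Among the closest to Egr2 were L3hypdh (root mean square difference 0.04), Septin11 (0.05), Kcnq5 (0.06) and Amotl2 (0.06), which encodes a protein of the Hippo pathway. These 4 placed the 10 array pairs as Egr2 did, with replicate 2 the highest and replicate 4 the lowest. None of these 4 was on the list of immediate early genes. Closest to Egr3 was Pdia4, which encodes a chaperone of the endoplasmic reticulum, with 10.87, 11.14, 10.99, 10.09 and 10.58 in replicates 1 to 5 (0.12). Next were Rnd3 (0.13), 1110064A23Rik (0.14), Alyref (0.14) and Arc (0.14), an immediate early gene best known from neurons. Of the genes closest to Egr3, Arc alone was on that list.

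The genes closest to Nr4a2 were others. Bin1, which encodes a protein that bends membranes, had 8.93, 9.43, 9.89, 9.35 and 9.39 and differed from Nr4a2 by 0.04. Adam19 (0.04), Kif26a (0.05), Pcdh17 (0.05) and Pitpnc1 (0.07) followed, all with replicate 1 the lowest and replicate 3 the highest, and none of the 5 was on any of the lists used here.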
